A study of Mus musculus with 12 samples.

Results

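The insulin-like growth factor (IGF) genes described here are the ligands Igf1 and Igf2, the receptors Igf1r and Igf2r, and the binding proteins Igfbp2, Igfbp3, Igfbp4, Igfbp5, Igfbp6 and Igfbp7. They are 10 of the 54532 genes quantified in each library. They were chosen by gene name, with earlier results of the same libraries known, so their differences between genotypes and tissues are given as a description. The position of these genes in a fit over all genes is printed for orientation, and the number of them that passes a threshold is no independent evidence.

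IGF-I and IGF-II are small secreted growth factors that act on cells through the IGF-I receptor, a tyrosine kinase that signals through the IRS docking proteins to PI3K, AKT and mTOR. The product of Igf2r, the cation-independent mannose-6-phosphate receptor, takes IGF-II up for degradation in lysosomes and does not signal as a kinase. Secreted binding proteins hold the ligands in the extracellular fluid, and proteases such as those encoded by Pappa and Pappa2 release them again. In the muscle coats of hollow organs IGF-I is known as a growth and survival factor for smooth muscle. Igf2 is an imprinted gene, expressed from the paternal allele, next to the maternally expressed non-coding RNA H19.

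Colon and urinary bladder came from male mice of 5 to 7 weeks, all carrying loxP-flanked Yap1 and Wwtr1 alleles, which encode the transcriptional coactivators YAP and TAZ. Y/T KO mice carried Myh11-CreERT2, a tamoxifen-inducible Cre driven by the promoter of the smooth muscle myosin gene and located on the Y chromosome, and Ctrl mice were Cre-negative. Both genotypes received tamoxifen, at 1 mg per mouse and day on 5 days, and tissues were taken on day 7 after the first injection. Each tissue and genotype had 3 libraries from 3 mice, giving 12 libraries from 9 mice. Mouse 788 of the Ctrl group and mice 783 and 780 of the Y/T KO group gave both tissues. The libraries were made from tissue homogenates, in which cells with an active Myh11 promoter are mixed with the other cells of the organ.

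The aligned bases behind each library ran from 2.80 to 3.94 gigabases, with a median of 3.46. Yap1 stood at 45.8 to 54.9 TPM in Ctrl colon and 41.3 to 47.0 in Y/T KO colon, and at 98.6 to 110 TPM in Ctrl bladder against 69.4 to 72.1 in Y/T KO bladder. Wwtr1 ranged from 16.9 to 21.5 TPM in Ctrl colon, 17.9 to 22.7 in Y/T KO colon, 32.5 to 61.6 in Ctrl bladder and 48.3 to 60.9 in Y/T KO bladder. TPM, the length-corrected share of a transcript in its library, was taken over whole genes and does not measure the deleted part alone. The 8 colon epithelial markers summed to at least 1557 TPM in every colon library and to at most 167 TPM in the bladder. Cdx2 was at 0 in all bladder libraries. Muc2 was at 0 there too, but it was also near 0 in the colon, at 0.0288 to 0.253 TPM in Ctrl and 0.0854 to 0.918 TPM in Y/T KO. Muc2 therefore does not tell the tissues apart here. The 7 urothelial markers summed to at least 5034 TPM in every bladder library and at most 33.9 TPM in the colon. Transcripts of pancreatic acinar cells were found in Ctrl colon, where the 5 markers summed to 7.03 to 128 TPM, against at most 1.08 TPM in Y/T KO colon.

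YAP and TAZ act on genes mainly through TEAD factors, so promoter windows are shown for the gene with the largest genotype difference (Igfbp2), for its neighbour Igfbp5, and for the Igf2 window that held the most copies of the core letters of the TEAD motif. All are RefSeq windows on GRCm38.p6, from 250 bases before to 50 bases after the annotated transcript start, written 5′ to 3′ on the strand of the gene. The capitals mark CATTCC. The Igfbp2 window lies at chr1:72824230-72824529 on the plus strand, the Igfbp5 window at chr1:72874816-72875115 on the minus strand, and the Igf2 window at chr7:142661222-142661521 on the minus strand.
Igfbp2: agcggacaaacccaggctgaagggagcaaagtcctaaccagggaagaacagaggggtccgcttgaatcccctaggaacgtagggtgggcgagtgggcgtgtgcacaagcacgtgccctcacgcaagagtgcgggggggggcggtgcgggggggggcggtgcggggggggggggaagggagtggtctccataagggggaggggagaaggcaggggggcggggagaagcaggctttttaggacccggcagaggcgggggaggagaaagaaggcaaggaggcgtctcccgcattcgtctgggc
Igfbp5: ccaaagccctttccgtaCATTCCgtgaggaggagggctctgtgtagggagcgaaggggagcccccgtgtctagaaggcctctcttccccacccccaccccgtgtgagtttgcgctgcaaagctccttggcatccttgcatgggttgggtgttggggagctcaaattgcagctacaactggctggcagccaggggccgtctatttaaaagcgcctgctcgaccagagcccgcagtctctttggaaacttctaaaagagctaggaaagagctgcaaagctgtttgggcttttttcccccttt
Igf2: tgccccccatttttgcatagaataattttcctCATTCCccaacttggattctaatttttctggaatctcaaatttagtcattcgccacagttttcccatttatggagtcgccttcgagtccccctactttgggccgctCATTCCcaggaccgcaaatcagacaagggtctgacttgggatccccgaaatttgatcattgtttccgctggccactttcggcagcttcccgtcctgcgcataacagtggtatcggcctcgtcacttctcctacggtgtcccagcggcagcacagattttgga

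The letters CATTCC were searched on both strands (GGAATG on the other), and no other motif was searched. All 10 genes had at least 1 window, 14 in all. Of these, 4 held the letters, namely the Igfbp5 window and 3 of the 4 windows of Igf2, and neither window of Igfbp2 did. Among all 32851 mouse promoter windows of the same length, 4817 (14.7%) held them. In Igfbp5 the match began 233 bases before the transcript start, and in the Igf2 window shown the matches began 218 and 112 bases before it. A match of 6 letters is a description of the sequence and not a measured binding site.

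The genes lie on 7 chromosomes of GRCm38, with positions as the gene tables give them. Igf1 spans chr10:87858265-87937042 on the plus strand, and Igf2 spans chr7:142650766-142666816 on the minus strand. The receptor gene Igf1r lies on the same chromosome as Igf2, at chr7:67952827-68233668 on the plus strand, and Igf2r at chr17:12682406-12769664 on the minus strand. Igfbp3 at chr11:7206086-7213923 (minus) has Igfbp1 as its neighbour, with 3539 bases between them, and Igfbp4 lies far from that pair at chr11:99041244-99054392 (plus). Igfbp6 spans chr15:102144362-102149511 (plus) and Igfbp7 spans chr5:77349240-77408041 (minus). Reads were summed over each whole gene, and the tables do not separate its exons or transcripts.

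Genotypes were compared with limma on log2(rescaled TPM + 0.1), so differences of low genes are understated, and p-values were adjusted over all genes tested in the tissue. A difference was called at an adjusted p below 0.05. In the colon 9 of the 10 genes were tested, since Igf2 did not reach 0.5 TPM in any library, and in the bladder all 10. None was called in either tissue in this fit, in which 0.137% of the 17500 genes tested in the colon and 0.302% of the 18237 tested in the bladder were called. At an unadjusted p below 0.05 there were 3 of the 9 in the colon (9.73% of all genes) and 5 of the 10 in the bladder (14.8% of all genes). Without overlap between genotypes, 2 of the genes stood lower in Y/T KO colon (7.87% of all genes did so) and 2 stood higher (8.24% of all genes). In the bladder these numbers were 3 (11.4% of all genes) and 2 (10.6% of all genes). With 3 mice against 3, the exact two-sided permutation test of a single gene cannot give a p below 0.10, and no such test could reach the threshold.

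**Figure D1:**
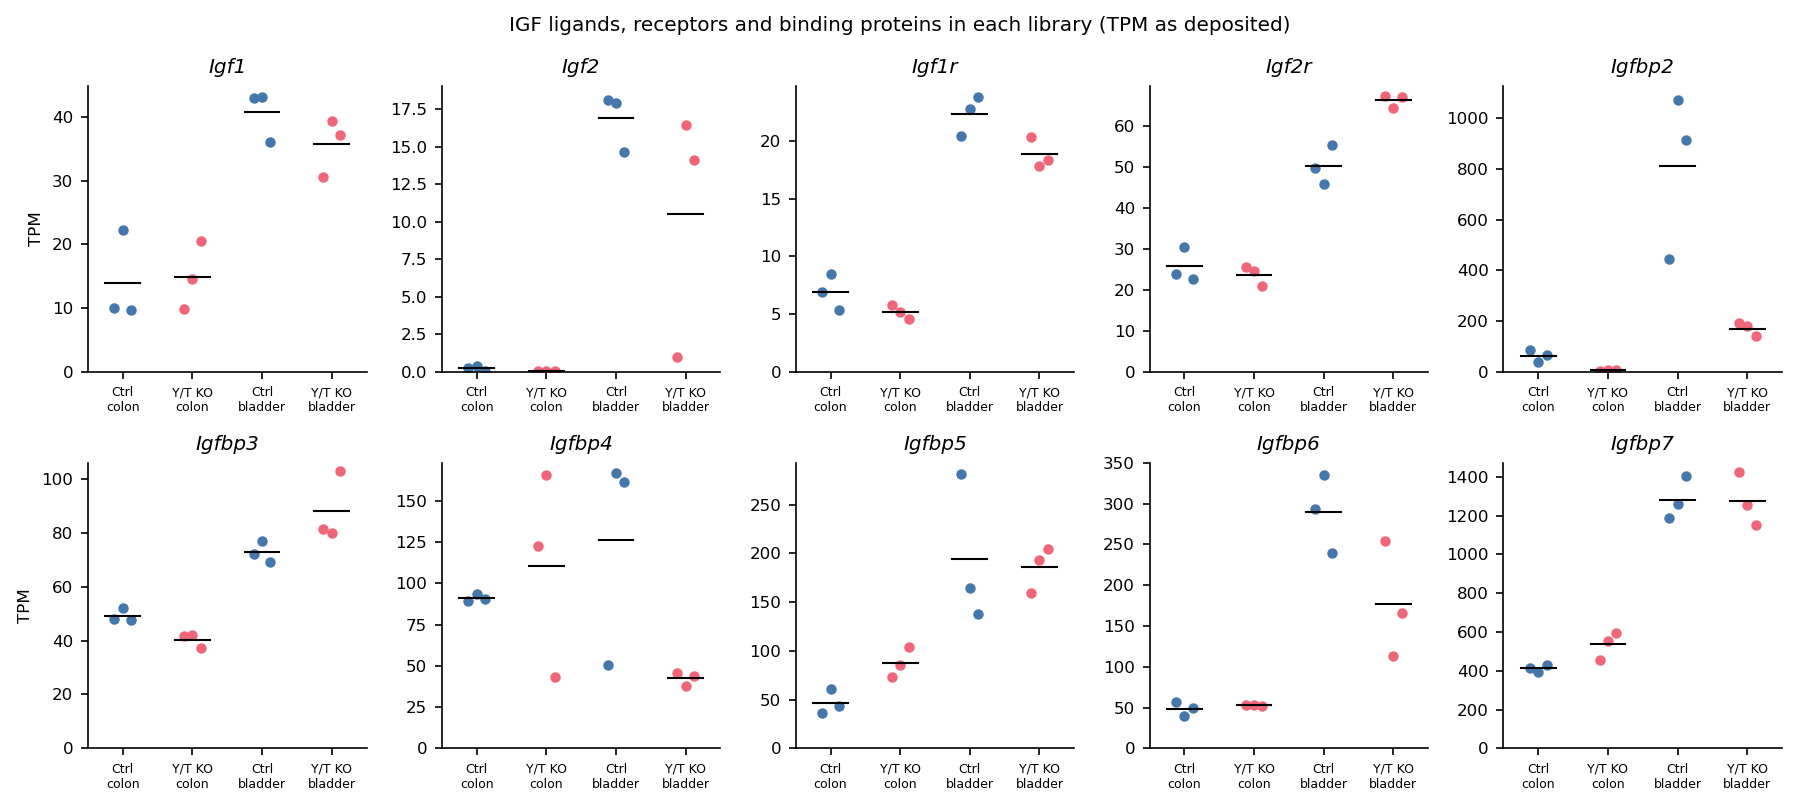
TPM as deposited of the 10 IGF genes on linear axes, with 1 point per library (Ctrl blue, Y/T KO red) and a bar at the mean of 3. Igfbp2 is lower in every Y/T KO library than in every Ctrl library of the same tissue, from 38.1 to 85.7 down to 3.58 to 9.07 TPM in the colon and from 444 to 1074 down to 141 to 193 TPM in the bladder.

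Igfbp2 encodes a secreted binding protein that holds both ligands and can bind integrins. It had the largest genotype difference of these genes in both tissues. The Ctrl colons of mice 788, 786 and 787 gave 85.7, 38.1 and 66.5 TPM, compared with 3.58, 5.72 and 9.07 TPM for the Y/T KO colons of mice 759, 783 and 780. Each Y/T KO library was thus below each Ctrl library by a wide margin. The group means of rescaled TPM were 63.1 ± 26.4 (SD, n = 3) and 6.17 ± 2.87 (SD, n = 3), a log2 difference of -3.34 ± 0.43 (SE), or 10.1-fold lower, with an adjusted p of 0.0601. The shallowest of these values, in mouse 759, rested on a mean of 7.18 reads over each base of the transcript, as derived from FPKM. The coverage deposited for Igfbp2 in that library was lower, at 0.368. It was lower than the derived value in every other library too, for example 7.90 against 153 in the Ctrl colon of mouse 788. The reason for this gap was not tested.

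In the bladder Igfbp2 was far more abundant, with 444, 1074 and 914 TPM for Ctrl mice 784, 785 and 788, against 193, 179 and 141 TPM for Y/T KO mice 782, 783 and 780. Again the genotypes did not overlap, and the Ctrl libraries spread more widely than the Y/T KO libraries. The means of rescaled TPM were 802 ± 317 (SD, n = 3) and 169.8 ± 26.5 (SD, n = 3), a log2 difference of -2.16 ± 0.32 (SE), or 4.48-fold lower, with an adjusted p of 0.0812. The genotype difference of Igfbp2 was not shown to differ between tissues, with an interaction of 1.17 on the log2 scale and an adjusted p of 0.453.

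The call for Igfbp2 depended on the fit while its size did not. In the colon it was called with all 12 libraries fitted together (adjusted p = 0.0108), with the mouse as a block in that fit (adjusted p = 0.0105), and with TPM as deposited (adjusted p = 0.0366). In the bladder it was called without Ctrl mouse 784 (adjusted p = 0.0126). Over all alternatives the log2 difference stayed between -3.73 and -3.00 in the colon and between -2.53 and -1.91 in the bladder.

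Transcripts of smooth muscle, the cell type that recombined, were also lower in the Y/T KO. The 10 smooth muscle markers summed to 7598 to 8323 TPM in Ctrl colon and 4973 to 5852 TPM in Y/T KO colon, and to 35380 to 46020 TPM in Ctrl bladder against 16920 to 31010 TPM in Y/T KO bladder. All 10 stood lower in both tissues, with a median log2 difference of -0.43 (colon) and -0.84 (bladder), and none was called. In homogenates, fewer cells of a type and less RNA per cell cannot be told apart. Set against this sum, Igfbp2 stood at 5.01 to 10.3 TPM per 1000 TPM of the markers in Ctrl colon and at 0.682 to 1.82 in Y/T KO colon. The same ratio in bladder was 12.55 to 23.4 in Ctrl and 6.22 to 8.68 in Y/T KO. The ratio thus separated the genotypes in both tissues, as the level itself did. The markers it is set against were themselves lower in the Y/T KO, and the cells that carry Igfbp2 were not identified. The part of smooth muscle content in the Igfbp2 difference was not tested.

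Igfbp5, the neighbour of Igfbp2, encodes a binding protein that associates with the extracellular matrix. The genes lie tail to tail on chromosome 1 of GRCm38, Igfbp2 at chr1:72824503-72852474 on the plus strand and Igfbp5 at chr1:72857932-72874884 on the minus strand, with 5457 bases between them. For Igfbp5, the Ctrl colons gave 36.3, 61.0 and 43.7 TPM, compared with 73.0, 85.8 and 104 TPM for the Y/T KO colons. Here every Y/T KO library was above every Ctrl library, the opposite order to Igfbp2. The log2 difference was 0.95 ± 0.20 (SE), or 1.94-fold, with an adjusted p of 0.236. For Igfbp5, the Ctrl bladders gave 281, 164 and 137 TPM, compared with 160, 193 and 205 TPM for the Y/T KO bladders, so the genotypes overlapped and the difference was 0.00 ± 0.29 on the log2 scale. The interaction was -0.96 with an adjusted p of 0.334.

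The ratio of Igfbp5 to Igfbp2 within a library does not depend on scaling between libraries. It was 0.423 to 1.60 in Ctrl colon and 11.5 to 20.4 in Y/T KO colon. For bladder it was 0.1504 to 0.633 in Ctrl and 0.829 to 1.46 in Y/T KO. Within 500 kb of the pair, Smarcal1, a DNA annealing helicase, and Rpl37a, a ribosomal protein, were the other genes tested in both tissues. On the log2 scale Rpl37a differed by 0.46 ± 0.24 in the colon and by -0.04 ± 0.10 in the bladder. Smarcal1 differed by 0.08 ± 0.16 and -0.17 ± 0.10. The differences of both were far smaller than that of Igfbp2.

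**Figure D2:**
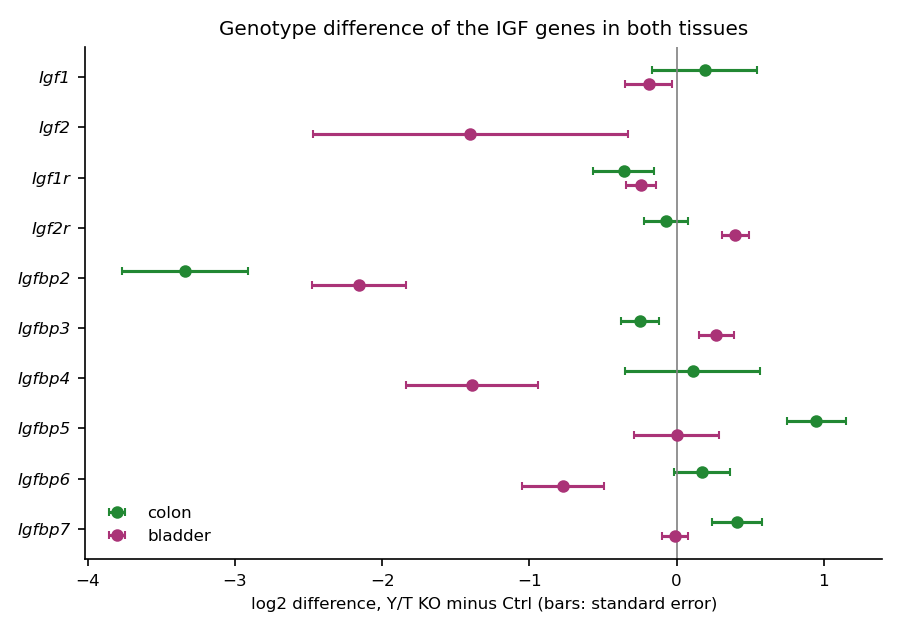
Log2 difference between Y/T KO and Ctrl (x axis) of the IGF genes in the colon (green) and bladder (purple), with bars of 1 standard error from the limma fit. Igfbp2 lies farthest to the left in both tissues (-3.34 and -2.16), Igfbp5 lies to the right in the colon (0.95) and at 0 in the bladder, and Igf2 in the bladder has the widest bar (1.07).

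Igfbp4 encodes a binding protein that is cleaved by the protease PAPP-A. For Igfbp4, the Ctrl colons gave 89.3, 93.3 and 90.3 TPM, compared with 123, 166 and 43.1 TPM for the Y/T KO colons. The Y/T KO libraries lay on either side of the tightly grouped Ctrl libraries, with mouse 780 lowest. For Igfbp4, the Ctrl bladders gave 50.4, 167 and 162 TPM, compared with 45.9, 37.9 and 43.7 TPM for the Y/T KO bladders. Ctrl mouse 784 lay near the Y/T KO libraries, and mice 785 and 788 far above them, so the log2 difference of -1.39 ± 0.45 (SE), or 2.61-fold lower, had an adjusted p of 0.251. Without Ctrl mouse 784 the difference was -1.93 with an adjusted p of 0.00499. The same library had the lowest Igfbp2 and the highest Igfbp5 of the Ctrl bladders.

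Igfbp6 encodes a binding protein with a preference for IGF-II. The colon groups overlapped, with 56.9, 39.1 and 49.6 TPM for Ctrl and 53.0, 53.4 and 52.1 TPM for Y/T KO. For Igfbp6, the Ctrl bladders gave 293, 336 and 240 TPM, compared with 254, 113 and 165 TPM for the Y/T KO bladders. Y/T KO mouse 782 lay within the Ctrl range and mice 783 and 780 below it, with a log2 difference of -0.77 ± 0.28 (SE) and an adjusted p of 0.286. The libraries of mice 783 and 780 were also high in the skeletal muscle transcript Tnnt3, at 1646 and 2110 TPM against 245 TPM in mouse 782. The part of skeletal muscle in the Igfbp6 values was not tested.

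Igfbp3 encodes the main carrier of IGFs in the blood, and its differences were small and of opposite sign. For Igfbp3, the Ctrl colons gave 48.0, 52.1 and 47.5 TPM, compared with 41.7, 42.1 and 37.1 TPM for the Y/T KO colons. For Igfbp3, the Ctrl bladders gave 72.2, 77.0 and 69.2 TPM, compared with 81.4, 79.9 and 103 TPM for the Y/T KO bladders. Neither tissue had an overlap between genotypes, with Y/T KO lower in the colon (-0.25 ± 0.13) and higher in the bladder (0.27 ± 0.12) on the log2 scale. The interaction was 0.52 ± 0.16 with an adjusted p of 0.269.

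Igfbp7 encodes a matrix-bound relative of the family with low affinity for IGFs, and it was the most abundant of the 10 transcripts in every group. For Igfbp7, the Ctrl colons gave 413, 392 and 432 TPM, compared with 457, 554 and 596 TPM for the Y/T KO colons, a log2 difference of 0.41 ± 0.17 (SE) with an adjusted p of 0.497. The colon genotypes did not overlap. For Igfbp7, the Ctrl bladders gave 1187, 1260 and 1402 TPM, compared with 1423, 1253 and 1151 TPM for the Y/T KO bladders, which overlapped, with a difference of -0.01 ± 0.09 on the log2 scale. Igfbp1, the remaining classical binding protein and a product mainly of the liver, was listed at 0 in all 12 libraries.

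The make-up of the binding protein transcripts was expressed as the percent of their summed TPM within a library, which needs no scaling between libraries. Igfbp2 made up 8.83% ± 3.07 (SD, n = 3) of the sum in Ctrl colon and 0.728% ± 0.312 (SD, n = 3) in Y/T KO colon. For bladder the share was 28.4% ± 8.28 (SD, n = 3) in Ctrl and 8.79% ± 0.955 (SD, n = 3) in Y/T KO, and it ran from 19.1% to 34.9% and from 7.77% to 9.67%. The share of Igfbp7 went the other way, from 46.6% ± 5.15 to 65.7% ± 1.94 in the bladder and from 58.0% ± 1.27 to 64.3% ± 5.71 in the colon (SD, n = 3). The shares have a fixed total, so a lower share of Igfbp2 raises the summed share of the others. The level of Igfbp7 itself differed by -0.01 ± 0.09 (bladder) and 0.41 ± 0.17 (colon) on the log2 scale. The share of Igfbp5 in the colon was 6.66% ± 2.11 in Ctrl and 10.5% ± 1.60 in Y/T KO (SD, n = 3).

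**Figure D3:**
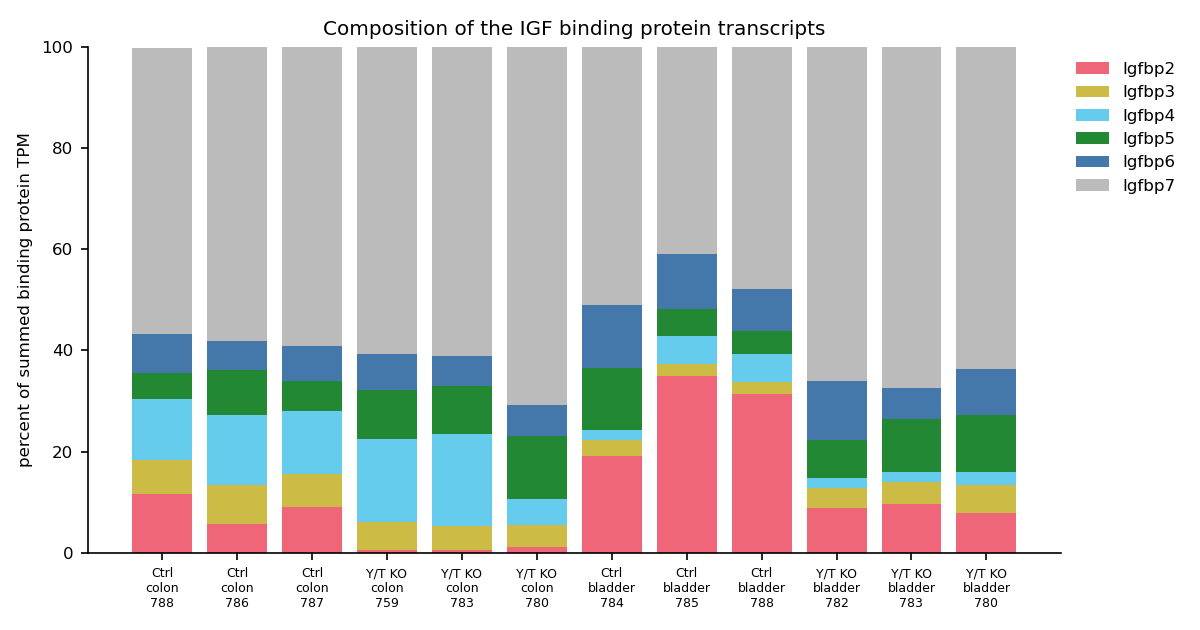
Stacked bars of the percent of summed TPM of the 6 binding protein genes in each of the 12 libraries, labelled by genotype, tissue and mouse. The red share of Igfbp2 is 5.63% to 11.7% in Ctrl colon, 0.477% to 1.08% in Y/T KO colon, 19.1% to 34.9% in Ctrl bladder and 7.77% to 9.67% in Y/T KO bladder.

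The summed TPM of the 6 binding proteins was 676 to 729 in Ctrl colon and 751 to 907 in Y/T KO colon, and 2327 to 3079 in Ctrl bladder against 1809 to 2156 in Y/T KO bladder. Leaving out Igfbp7, the bladder sums were 1141 to 1818 TPM in Ctrl and 603 to 733 in Y/T KO, while the colon sums overlapped. In TPM as deposited, the total of the binding protein transcripts thus stood lower in Y/T KO bladder and, by a smaller margin, higher in Y/T KO colon. The colon margin was 729 TPM in Ctrl mouse 787 against 751 TPM in Y/T KO mouse 759. It is lost on division by their size factors of 0.968 and 0.9999, after which the colon genotypes overlap.

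Of the ligands, Igf1 showed no separation of genotypes. Igf1 had 10.01, 22.2 and 9.68 TPM in the Ctrl colons, compared with 9.86, 14.5 and 20.5 TPM for the Y/T KO colons. For Igf1, the Ctrl bladders gave 43.0, 43.2 and 36.1 TPM, compared with 30.5, 39.4 and 37.2 TPM for the Y/T KO bladders. The log2 differences were 0.19 ± 0.36 (colon) and -0.19 ± 0.16 (bladder), and the groups overlapped in both tissues.

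Igf2 was near the limit of detection in the colon and well detected in the bladder. For Igf2, the Ctrl colons gave 0.279, 0.419 and 0.0699 TPM, compared with 0.0556, 0.0757 and 0.0828 TPM for the Y/T KO colons, which corresponds to 0.111 to 0.765 reads over each base of the transcript. For Igf2, the Ctrl bladders gave 18.1, 17.9 and 14.7 TPM, compared with 1.01, 16.4 and 14.1 TPM for the Y/T KO bladders. A single library, that of Y/T KO mouse 782, carried the bladder difference of -1.40 ± 1.07 on the log2 scale (adjusted p = 0.587), which was -0.12 without it. The value in mouse 782 rested on 1.65 reads over each base of the transcript, as derived from FPKM, against 21.0 or more in the other bladder libraries. The deposited coverage was lower, at 0.196 in mouse 782 and 7.00 or more in the others.

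H19 lies 72622 bases from Igf2 on chromosome 7, at chr7:142575529-142578143 on the minus strand of GRCm38. For H19, the Ctrl bladders gave 5.74, 4.04 and 6.19 TPM, compared with 2.48, 53.6 and 62.6 TPM for the Y/T KO bladders. Mouse 782 was lowest for both genes, and mice 783 and 780 stood far above the others for H19 while their Igf2 lay within or close to the Ctrl range. The H19 difference was 1.95 ± 1.27 on the log2 scale with an adjusted p of 0.529, and 3.47 ± 0.21 with an adjusted p of 0.00911 without mouse 782. The same 2 libraries were high in transcripts of skeletal muscle, looked up after the values of H19 were seen. Tnnt3, the troponin T of fast skeletal muscle, reached 1646 and 2110 TPM there, against 222 to 294 TPM in the other bladder libraries. Myh4, a fast skeletal myosin, reached 409 and 432 TPM, and stood at 46.1 TPM in Ctrl mouse 784 and at 0 in the other 3. The part of skeletal muscle in the H19 and Igf2 values was not tested.

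**Figure D4:**
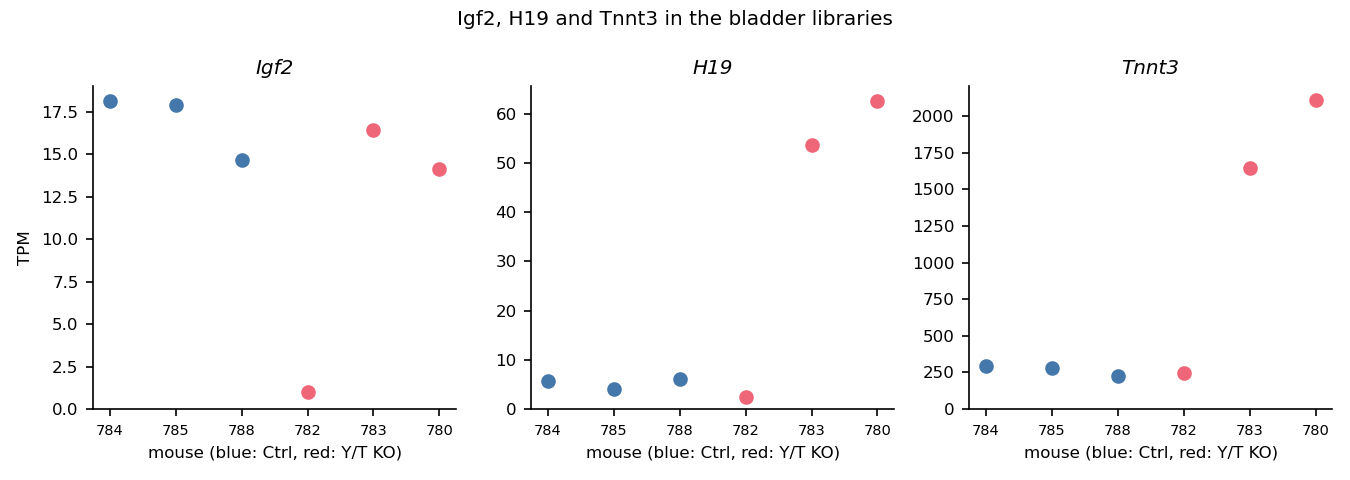
TPM of Igf2, H19 and Tnnt3 in the 6 bladder libraries on linear axes, with 1 point per mouse (Ctrl blue, Y/T KO red). Igf2 is low in mouse 782 (1.01 TPM) and at 14.1 to 18.1 TPM elsewhere, while H19 and Tnnt3 are both high in mice 783 and 780.

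Neither receptor was called between genotypes. Igf1r had 6.95, 8.49 and 5.34 TPM in the Ctrl colons, compared with 5.76, 5.17 and 4.55 TPM for the Y/T KO colons. For Igf1r, the Ctrl bladders gave 20.4, 22.8 and 23.8 TPM, compared with 20.3, 17.8 and 18.4 TPM for the Y/T KO bladders. The bladder genotypes stood apart by a narrow margin, with a log2 difference of -0.24 ± 0.10 and an adjusted p of 0.317. In the colon the groups overlapped, with a difference of -0.36 ± 0.21.

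Igf2r had 24.0, 30.6 and 22.6 TPM in the Ctrl colons, compared with 25.6, 24.5 and 21.0 TPM for the Y/T KO colons, which overlapped. For Igf2r, the Ctrl bladders gave 49.7, 45.8 and 55.5 TPM, compared with 67.5, 64.3 and 67.1 TPM for the Y/T KO bladders. The Y/T KO bladders were tightly grouped above the Ctrl bladders, with a log2 difference of 0.40 ± 0.09 (SE), or 1.32-fold, and an adjusted p of 0.148. The ratio of Igf2r to Igf1r within a library was 2.01 to 2.43 in Ctrl bladder and 3.32 to 3.65 in Y/T KO bladder. In the colon the ratio was 3.45 to 4.24 in Ctrl and 4.44 to 4.75 in Y/T KO. The ratio was higher in every Y/T KO library than in every Ctrl library of the same tissue.

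The levels differed widely between bladder and colon. In Ctrl mice 9 of the 10 genes were called between bladder and colon, all of them higher in bladder, beside 50.4% of 19773 genes called in either direction and 25.3% called higher in bladder. In Y/T KO mice all 10 were called, 9 of them higher in bladder, beside 51.3% called in either direction and 25.6% called higher in bladder. The median log2 difference over all genes was -0.01 in both genotypes, and that of the 10 genes was 1.42 in Ctrl and 1.12 in Y/T KO. Tissue and the share of each cell type cannot be told apart in these homogenates, in which smooth muscle markers were also higher in bladder.

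The tissue difference of Igf2 was 5.50 ± 0.85 on the log2 scale in Ctrl mice and 5.03 ± 0.85 in Y/T KO mice. As the colon values were near 0, its size depended on the pseudocount and was 3.68 in Ctrl and 2.80 in Y/T KO mice with a pseudocount of 1. Without Y/T KO bladder mouse 782 the Y/T KO value was 6.30, and without bladder mouse 783 it was 4.31. The tissue difference of Igfbp2 was 3.40 ± 0.42 in Ctrl and 4.59 ± 0.42 in Y/T KO, and was higher in bladder than in colon by 10.5-fold and 24.1-fold. Igfbp6 was higher by 2.32 in Ctrl and 1.39 in Y/T KO, Igfbp5 by 1.75 and 0.82, and Igfbp7 by 1.37 and 0.98. Igf1r was higher by 1.44 and 1.58, Igf1 by 1.39 and 1.03, and Igf2r by 0.71 and 1.21. For these genes every bladder library lay above every colon library of the same genotype, and the calls held under all 21 alternatives except for Igf1 and Igfbp5 in Y/T KO mice.

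Igfbp3 was higher in bladder by 0.30 in Ctrl (adjusted p = 0.0434) and by 0.84 in Y/T KO, and the first of these calls was lost under 10 of 21 alternatives. Igfbp4 was the exception among the 10, with a log2 difference of 0.02 in Ctrl and of -1.45 ± 0.50 in Y/T KO, where bladder was the lower tissue (adjusted p = 0.0335). That call was lost under 6 of 21 alternatives, including TPM as deposited and the removal of Y/T KO colon mouse 759 or 783 or of any of the Y/T KO bladders. Without colon mouse 759, and also without bladder mouse 783, the Y/T KO count was 7 of 10.

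The difference of the genotype effect between tissues was tested for the 9 genes measured in both. None was called, beside 0.0491% of 16298 genes, and 5 of the 9 had an unadjusted p below 0.05, beside 12.6% of all genes. The largest interactions on the log2 scale were those of Igfbp4 (-1.50), Igfbp2 (1.17), Igfbp5 (-0.96) and Igfbp6 (-0.95). None of the alternative fits called any of the 9.

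The order of the levels, compared as TPM, which is per transcript length, changed with tissue and genotype. In Ctrl colon Igfbp7 led at 449 ± 48.0, followed by Igfbp4 at 98.7 ± 4.25 and Igfbp2 at 69.7 ± 28.7, in TPM rescaled over all 12 libraries (SD, n = 3). From Igfbp4 down to Igfbp5, at 50.5 ± 10.7, each gene overlapped with the next in its range over mice. Below them came Igf2r, Igf1, Igf1r and Igf2 without overlap between neighbours. In Y/T KO colon Igfbp2 took rank 8 of 10, at 6.70 ± 3.04 (SD, n = 3), where its range overlapped with that of Igf1r.

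In Ctrl bladder Igfbp7 led at 1160 ± 63.4, and Igfbp2 held rank 2 at 729.6 ± 286, without overlap with its neighbours (SD, n = 3). In Y/T KO bladder Igfbp2 took rank 4 at 155 ± 25.3, overlapping with Igfbp6 above it but not with Igfbp3 below it (SD, n = 3). Igf1r and Igf2 held ranks 9 and 10 in all groups. The summed binding protein TPM exceeded the summed ligand TPM in every library, by 29.9- to 75.7-fold in the colon and 33.3- to 68.3-fold in the bladder, and the genotypes overlapped in both tissues. Igf1 made up 97.3% or more of the ligand TPM in every colon library and 70.3% to 71.1% in Ctrl bladder. In Y/T KO bladder its share ran from 70.57% to 96.8%, the highest being that of mouse 782.

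The genes with a pattern most like that of Igfbp2 were ranked by Pearson's r of log2 values centred on each tissue's mean, over the 12 libraries and 16297 other genes. The leading genes were Gm11627 (r = 0.955), Lims2 (0.948), Numb (0.927), Wscd2 (0.921) and 9930014A18Rik (0.917). These points share libraries, and genotype is part of the pattern, so r is a description. Lims2, an adaptor of integrin adhesions, stood at 26.9 to 28.4 TPM in Ctrl colon and 5.43 to 9.52 TPM in Y/T KO colon, and at 94.2 to 160 TPM in Ctrl bladder against 39.7 to 61.5 in Y/T KO bladder. Numb, an adaptor that antagonises Notch, differed far less, by -0.25 and -0.12 on the log2 scale. Gm11627 and Lims2 were called in the colon, with adjusted p-values of 0.0362 and 0.0410, and none of the 5 was called in the bladder.

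A further 56 genes of the IGF axis were listed by role, chosen with the earlier results known, and the filter left 46 in the colon and 49 in the bladder. None was called in either tissue in this fit. An unadjusted p below 0.05 was found for 4 of the 46 (colon) and 7 of the 49 (bladder), shares no higher than the 9.73% and 14.8% of all genes. Of the 46, 28 stood lower and 18 higher in Y/T KO colon, with a median log2 difference of -0.06 beside 0.01 over all genes. Of the 49, 21 stood lower and 28 higher in Y/T KO bladder, with a median of 0.03 beside 0.00 over all genes.

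Among the 11 relatives that share the IGFBP domain, 10 were tested. Ccn3, a matricellular protein, had 82.6, 90.8 and 73.2 TPM in the Ctrl colons, compared with 20.9, 31.3 and 34.6 TPM for the Y/T KO colons. It did not overlap between genotypes, with a log2 difference of -1.49 ± 0.20 and an adjusted p of 0.0569. Ccn3 was scarcer in the bladder, where the Ctrl mice had 10.2, 10.3 and 10.2 TPM and the Y/T KO mice 11.4, 21.3 and 18.3 TPM, a difference of 0.68 ± 0.25. The higher values, 21.3 and 18.3 TPM, were those of mice 783 and 780, whose bladder libraries were high in Tnnt3 (1646 and 2110 TPM). The part of skeletal muscle in the Ccn3 values was not tested. The interaction for Ccn3 was 2.17 ± 0.34 with an adjusted p of 0.0677. Ccn3 was called in the colon with FPKM in place of TPM (adjusted p = 0.0490), with all 12 libraries in one fit (0.0285), with the mouse as a block in that fit (0.0267), and without Y/T KO mouse 759 (0.0338).

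Ccn5, a relative that lacks the carboxy-terminal domain, had 2.02, 2.73 and 2.31 TPM in the Ctrl colons, compared with 3.16, 10.9 and 15.4 TPM for the Y/T KO colons. For Ccn5, the Ctrl bladders gave 15.9, 26.5 and 14.02 TPM, compared with 4.65, 13.6 and 3.48 TPM for the Y/T KO bladders. The log2 differences were 1.79 ± 0.54 and -1.56 ± 0.55, and the interaction of -3.36 had an adjusted p of 0.221. Without Y/T KO mouse 759 the colon difference of Ccn5 was 2.46 with an adjusted p of 0.0188. Ccn1, an immediate-early gene, ranged from 7.28 to 658 TPM among the Ctrl bladders, and its bladder difference of -0.85 ± 1.69 and colon difference of 0.74 ± 0.32 were not called. Esm1, a proteoglycan of endothelial cells, differed by 0.50 ± 0.24 in the colon and 0.47 ± 0.21 in the bladder on the log2 scale, and its genotypes did not overlap in either tissue.

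**Figure D5:**
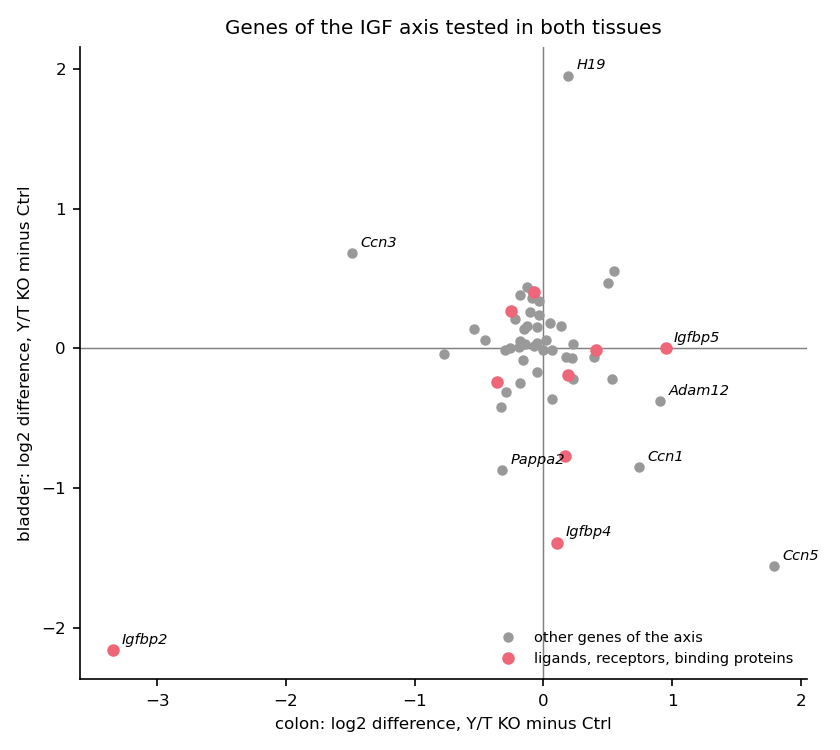
Log2 difference between Y/T KO and Ctrl in the colon (x axis) and in the bladder (y axis) for the 55 genes of the IGF axis tested in both tissues, 9 of them ligands, receptors or binding proteins (red). Igfbp2 lies alone at the lower left (-3.34, -2.16), while Ccn3 (-1.49, 0.68) and Ccn5 (1.79, -1.56) lie on opposite sides in the tissues.

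Of the proteases that cleave binding proteins and their inhibitors, 5 of 6 were tested in the colon and all 6 in the bladder. Stc2, stanniocalcin-2, an inhibitor of PAPP-A, had 6.73, 8.29 and 7.37 TPM in the Ctrl colons, compared with 12.7, 9.62 and 9.98 TPM for the Y/T KO colons. For Stc2, the Ctrl bladders gave 12.2, 16.1 and 10.4 TPM, compared with 21.9, 17.5 and 16.9 TPM for the Y/T KO bladders. Its genotypes did not overlap in either tissue, with log2 differences of 0.55 ± 0.18 and 0.55 ± 0.20 and adjusted p-values of 0.446 and 0.280. Adam12, a metalloprotease that cleaves binding proteins, differed by 0.91 ± 0.50 in the colon and -0.38 ± 0.20 in the bladder. Pappa, the gene of PAPP-A itself, differed by 0.53 ± 0.46 and -0.22 ± 0.22, and Pappa2 by -0.32 ± 0.34 and -0.87 ± 0.53. The other inhibitor, Stc1, differed by 0.39 ± 0.32 in the colon.

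The insulin receptor gene Insr differed by -0.45 ± 0.21 (colon) and 0.06 ± 0.10 (bladder). The orphan receptor Insrr differed by -0.77 ± 0.30 and -0.04 ± 0.36, and the growth hormone receptor Ghr by -0.18 ± 0.17 and 0.38 ± 0.18. Of the docking proteins and adaptors, 8 of 9 were tested in each tissue. Irs2 differed by -0.54 ± 0.26 (colon) and 0.14 ± 0.16 (bladder), and Irs1 by -0.13 ± 0.23 and 0.44 ± 0.21. Gab1, a docking protein, stood at 21.3 to 22.6 TPM in Ctrl bladder and 26.6 to 29.5 TPM in Y/T KO bladder, a log2 difference of 0.36 ± 0.09 with an adjusted p of 0.167. Sos1 (-0.26), Grb14 (-0.22) and Grb2 (0.22) had the next largest differences in the colon, and Grb14 (0.21) in the bladder.

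In the PI3K, AKT, mTOR and FOXO arm 18 of 19 genes were tested in each tissue. In the colon 13 stood lower and 5 higher, with none past an unadjusted p of 0.05, and in the bladder 5 stood lower and 13 higher, with 3 past it, where 14.8% of all genes were past it. Of all genes, 49.1% (colon) and 49.8% (bladder) stood lower. The median log2 difference was -0.06 in the colon and 0.10 in the bladder. Foxo3, a transcription factor that AKT keeps out of the nucleus, stood at 23.8 to 25.2 TPM in Ctrl bladder and 29.8 to 34.9 TPM in Y/T KO bladder, a difference of 0.41 ± 0.09 with an adjusted p of 0.146. Akt1 stood at 156 to 165 TPM in Ctrl bladder and 111 to 145 TPM in Y/T KO bladder (-0.36 ± 0.09, adjusted p = 0.182). Pik3ca differed by 0.26 ± 0.12. In the colon the largest differences of this arm were those of Rictor (-0.30 ± 0.24), Mtor (-0.19 ± 0.17), Foxo1 (-0.18 ± 0.19) and Pik3cb (-0.16 ± 0.39).

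Of the Igf2 mRNA-binding proteins, Igf2bp2 was tested in both tissues, with differences of -0.18 ± 0.20 and -0.25 ± 0.17, and Igf2bp3 in the bladder, with 0.10 ± 0.39. Igfals, the acid-labile subunit of the circulating IGF complex, differed by -0.06 ± 0.58 in the bladder and was not tested in the colon.

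Markers of other cell types that could carry these transcripts were summed in each library. The 10 fibroblast markers overlapped in their sum, at 2327 to 3009 TPM in Ctrl colon and 2617 to 3282 TPM in Y/T KO colon. Their bladder sums were 10870 to 13330 TPM in Ctrl and 9841 to 13020 TPM in Y/T KO. Of the 10, 3 stood lower and 7 higher in the colon, and 4 lower and 6 higher in the bladder, and none was called. In the colon Col1a2 stood higher without overlap (0.47 ± 0.16 on the log2 scale, 8.24% of all genes did so). In the bladder Fbln1 stood lower without overlap (-0.58 ± 0.20, 11.4% of all genes). Dcn (0.24 ± 0.09) and Mfap5 (0.53 ± 0.20) stood higher there without overlap (10.6% of all genes). The 8 endothelial markers also overlapped, at 124 to 145 and 130 to 161 TPM in the colon and 276 to 307 and 288 to 331 TPM in the bladder. The 7 macrophage markers stood at 340 to 493 and 448 to 667 TPM in the colon and 913 to 1192 and 791 to 1107 TPM in the bladder. The 6 adipocyte markers varied widely, at 42.2 to 171 and 36.2 to 53.1 TPM in the colon and 464 to 1799 and 1268 to 2388 TPM in the bladder. The 8 colon epithelial markers did not overlap in their sum in the colon, at 2688 to 3148 TPM in Ctrl and 1557 to 2232 TPM in Y/T KO. Of the 7 tested, 5 stood lower and 2 higher, and none was called. Only 2 did not overlap, Car1 (-1.33 ± 0.36 on the log2 scale) and Slc26a3 (-0.95 ± 0.26). The 4 mesothelial markers overlapped, at 34.5 to 44.4 and 27.6 to 61.9 TPM in the colon and 270 to 450 and 147 to 378 TPM in the bladder. The 7 markers of enteric neurons and glia did not overlap in the bladder, at 364 to 463 TPM in Ctrl and 478 to 607 TPM in Y/T KO, and stood at 40.2 to 49.4 and 35.5 to 44.1 TPM in the colon. The 7 urothelial markers overlapped in their sum, at 6288 to 6830 TPM in Ctrl bladder and 5034 to 6500 TPM in Y/T KO bladder. All 7 stood lower in Y/T KO bladder, 3 of them without overlap, with a median log2 difference of -0.18, and none was called. Krt5, a keratin of basal urothelium, had the largest of these differences (-0.85 ± 0.12, adjusted p = 0.0628). The 5 seminal vesicle markers summed to at most 2.14 TPM in any library. The part of these cell types in the differences of the IGF genes was not tested.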

How the data were processed

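Stranded TruSeq libraries of mRNA from colon and bladder homogenates were sequenced on a NextSeq 500. Per the labels the submitters used bcl2fastq, FastQC, HISAT2, StringTie and DESeq2 with GRCm38. The authors deposited, for each library, a StringTie table of TPM, FPKM and coverage per gene. The deposited TPM values are scaled to the same total in every library, the FPKM values were scaled by the authors to transcript length and mapped fragments, and the deposited coverage signal is the mean read depth along a gene. The count tables behind the authors' DESeq2 test were not used here, so limma replaced it. Rows were summed by gene ID.

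Groups and mice came from the labels. Size factors by the median of ratios rescaled TPM, within a tissue (0.966 to 1.107) for genotype comparisons and over all 12 libraries (0.878 to 1.143) for tissue comparisons. A gene was kept where 3 or more libraries reached 0.5 TPM. The log2 of rescaled TPM plus a pseudocount of 0.1 was fitted with limma 3.58.1 (lmFit, then eBayes with trend and robust) in R 4.3.3, with Benjamini-Hochberg adjustment over all genes tested. Each genotype comparison used the 6 libraries of its tissue, and tissue comparisons and the interaction used all 12. The fit was tested on simulated data. The modal quotient of coverage and FPKM in a library gave its aligned bases, and this times FPKM gave the reads over each base of a transcript. For Igfbp2, Igf2, Igf1, Igf1r, Igf2r, Igfbp3, Igfbp4 and Igfbp7 the derived value exceeded the deposited coverage in every library. For Igfbp5 and Igfbp6 it lay close to the deposited coverage. No counts were used, so the counting error of a TPM value was not estimated.

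The members and lists were chosen with earlier results of these data known. All 10 members were named, together with the called genes and up to 4 tested genes with the largest difference per list and tissue, the 5 genes most like Igfbp2, and tested genes within 500 kb of Igfbp2 and Igfbp5. Skeletal muscle genes and the neighbours of Igf2 were added after the values were seen. Alternatives were other pseudocounts (0.5 and 1), no filter or a mean of at least 1 TPM, TPM without size factors, FPKM, all 12 libraries in one fit, the mouse as a block, limma without trend and robust, each library left out, and coverage, which was chosen after seeing the data. Mice that gave both tissues pair the libraries. Over all tested genes, deviations from group means correlated at 0.0437 on average between the 2 tissues of a mouse (3 mice) and at -0.00885 between tissues of different mice of a genotype (15 pairs). Promoter windows were RefSeq sequences on GRCm38.p6, matched by symbol. A gene that the naming rule selects is not reported here.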

Additional observations from a re-analysis of the deposited data

Results flagged for a closer look

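Igfbp3 was the only one of the 10 IGF genes whose genotypes did not overlap in either tissue and stood in opposite order, Y/T KO being the lower genotype in the colon and the higher in the bladder. The interaction of tissue and genotype was 0.52 ± 0.16 on the log2 scale in the limma fit over all 12 libraries, with an adjusted p of 0.269, so a difference between the tissues was not shown.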

How the results depend on the processing

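In the colon the count of IGF genes called between genotypes was 0 and became 1 (Igfbp2) when all 12 libraries were fitted together, with TPM as deposited, and with the mouse as a replicate block in the joint fit, where the count was again 1. The count of other axis genes called in the colon became 1 (Ccn3) with FPKM, with all 12 libraries in one fit and with the replicate block. With one library left out, the counts ran from 0 to 0 for the IGF genes and from 0 to 2 for the axis genes in the colon (Ccn3 and Ccn5 without Y/T KO mouse 759), and from 0 to 2 and from 0 to 1 in the bladder (Igfbp2 and Igfbp4 without Ctrl mouse 784, H19 without Y/T KO mouse 782). The replicate block changed no other call. The count in the tissue comparisons ran from 8 to 9 in Ctrl and from 7 to 10 in Y/T KO, and the interaction count stayed at 0. No called difference changed sign under any alternative. Of the single values, 5 of 210 in the Ctrl tissue comparison and 7 of 210 in the Y/T KO one moved by more than 1 residual SD, and none of 160 and 144 in the genotype comparisons. The mean shares among binding proteins moved by less than 1 SD with FPKM and with each library left out, in all 96 cases. The cause of these shifts was not tested. Over all genes the number called in the colon was 24, and ran from 5 without Ctrl mouse 786 or Y/T KO mouse 783 or 780, and 6 without a filter, to 71 in the joint fit and 73 with the replicate block. In the bladder it was 55, and ran from 11 without Ctrl mouse 785 or 788 to 73 with all 12 libraries. Igf2 rested on few reads in the colon, at under 1 read per base, and in Y/T KO bladder mouse 782, at 1.65. The library of mouse 782 was not shallow, at 3.66 gigabases, and the reason for its low Igf2 was not tested.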

Other observations

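Genes near Igf2 on chromosome 7 were read after the values of Igf2 and H19 had been seen. Tnni2, the troponin I of fast skeletal muscle, reached 992 and 1092 TPM in bladder from Y/T KO mice 783 and 780, 123 TPM in Ctrl mouse 784 and 18.3 to 24.5 TPM in the other 3 bladders. Ckm, the muscle creatine kinase, reached 414 and 404 TPM in these mice and 82.0 to 138 TPM in the other 4. Mrpl23, the mitochondrial ribosomal protein gene beside H19, differed by -0.06 ± 0.08 on the log2 scale in the bladder, and Ctsd, a lysosomal protease, by -0.09 ± 0.12.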
